A study of Mus musculus with 7 samples.

Results

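The light chain variable segments are the germline V genes of the kappa (Igkv) and lambda (Iglv) immunoglobulin loci. They were taken as every entry of the deposited count table whose symbol begins with Igkv or Iglv, which gave 78 kappa and 3 lambda segments, 81 of 28828 entries. They were measured by RNA sequencing of whole lung of C57BL/6 mice, in 3 libraries of Scgb3a2 knockout mice (KO3, KO4 and KO5) and 4 libraries of wild type mice (WT2, WT3, WT4 and WT6), named by genotype and the number in their titles. No treatment is given for either genotype, and the labels are silent on age, sex, litter, the cells in which the gene was disrupted and the exons removed. Since the labels do not tie libraries to separate mice, a p-value here measures only how much the libraries vary. Scgb3a2, a secretoglobin secreted mainly by airway club cells, had 1.28, 1.21 and 2.68 CPM (counts scaled to the library's size) in KO3, KO4 and KO5, against 253, 266, 195 and 293 CPM in WT2, WT3, WT4 and WT6. All 7 libraries thus had the level of the targeted gene that their label states.

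An antibody light chain is encoded by 1 V segment joined to 1 J segment and spliced to a constant region. The choice of segment is made by DNA recombination in a developing B cell and is kept by all of its descendants, so every B cell clone carries its own V segment. Most mouse B cells use a kappa chain and a minority use lambda, and antibody-secreting plasma cells hold far more of this transcript per cell than resting B cells. In RNA of whole tissue, fewer or more cells of a type and less or more RNA per cell cannot be told apart. In the mouse kappa locus, V segments lie in both orientations: those pointing the same way as the J segments are joined by deletion of the DNA between, and the others by inversion.

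The kappa members lay on chromosome 6 between positions 67609713 and 70704177 of the GRCm38 (mm10) assembly, with 49 segments on the minus strand and 29 on the plus strand, the strand of Igkj and Igkc. The lambda members lay on chromosome 16 between 19085017 and 19260859, all on the minus strand. All 81 symbols matched the GENCODE M21 annotation, where every one is a V gene and none a pseudogene. Each has a short leader exon and a V exon, with a summed exon length of 338 to 404 bases in kappa and 366 to 391 bases in lambda. Libraries held 13071262 to 16480006 counts, so that 3 counts, the limit which a count of 0 allows, equalled 0.181 to 0.222 CPM. Without molecular identifiers, this limit and the counting intervals given here cover counting error only.

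The last 300 bases of the V exon are shown for the segment with the most counts in every knockout library, Igkv8-21 (chr6:70314895-70315194, minus strand), and for the segment with the smallest p, Igkv3-2 (chr6:70698768-70699067, plus strand), near the end of the locus that lies by Igkj. The sequences are those of GENCODE transcripts on GRCm38, 5′ to 3′ on the coding strand. Capitals mark the germline stretch from the last in-frame cysteine codon to the segment's end, which opens the third complementarity-determining region of the finished chain.
Igkv8-21: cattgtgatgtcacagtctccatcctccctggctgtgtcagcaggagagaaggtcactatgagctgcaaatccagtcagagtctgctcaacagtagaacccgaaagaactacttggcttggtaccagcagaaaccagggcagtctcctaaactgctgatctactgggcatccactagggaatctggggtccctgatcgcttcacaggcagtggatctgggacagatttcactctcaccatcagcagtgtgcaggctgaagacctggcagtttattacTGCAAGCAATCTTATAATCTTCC
Igkv3-2: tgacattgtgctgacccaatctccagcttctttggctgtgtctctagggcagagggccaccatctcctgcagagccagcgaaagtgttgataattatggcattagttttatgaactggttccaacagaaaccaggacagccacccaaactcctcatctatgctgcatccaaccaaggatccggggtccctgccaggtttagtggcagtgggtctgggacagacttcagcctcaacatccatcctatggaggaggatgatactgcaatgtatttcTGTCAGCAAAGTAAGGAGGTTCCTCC

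Igkv8-21 belongs to a family of 7 segments, whose last 60 bases of the V exon are given here so that the copies can be compared, with the same capitals. The germline stretch in capitals has 23 bases in Igkv8-21, 21 in Igkv8-27 and 26 in the other members of the family.
Igkv8-16: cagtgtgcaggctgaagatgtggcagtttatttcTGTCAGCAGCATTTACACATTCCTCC
Igkv8-19: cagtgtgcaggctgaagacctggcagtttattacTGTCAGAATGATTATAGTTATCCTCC
Igkv8-21: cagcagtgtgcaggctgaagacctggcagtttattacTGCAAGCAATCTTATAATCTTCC
Igkv8-24: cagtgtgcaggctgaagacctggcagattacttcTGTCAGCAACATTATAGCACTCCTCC
Igkv8-27: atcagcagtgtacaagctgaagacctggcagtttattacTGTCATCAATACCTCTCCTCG
Igkv8-28: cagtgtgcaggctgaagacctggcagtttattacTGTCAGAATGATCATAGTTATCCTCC
Igkv8-30: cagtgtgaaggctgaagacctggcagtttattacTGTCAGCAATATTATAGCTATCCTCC
Over the whole V exon, Igkv8-21 was 79.4% to 92.1% identical to its relatives. The nearest were Igkv8-19 and Igkv8-30, each with 25 differing positions in 316 aligned columns, and the longest run of bases shared with any of them was 90 bases. Other kappa segments were closer to a copy. The nearest relative was over 95% identical for 33 of 78 kappa segments, and 18 of 78 shared a run of at least 100 bases with another segment. The program that counted the reads and its treatment of reads fitting several copies are not stated in the sources at hand, so values of such pairs are uncertain between the copies.

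Other segments that ranked high in single libraries are given by the same last 60 bases. Igkv1-110 and Igkv1-117 were 96.8% identical over the V exon, with a shared run of 142 bases.
Igkv1-110: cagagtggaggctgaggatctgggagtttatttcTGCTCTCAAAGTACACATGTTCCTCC
Igkv1-117: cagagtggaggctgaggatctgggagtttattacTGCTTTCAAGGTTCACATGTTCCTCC
Igkv4-57-1: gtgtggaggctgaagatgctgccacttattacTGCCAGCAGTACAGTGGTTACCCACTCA
Igkv10-96: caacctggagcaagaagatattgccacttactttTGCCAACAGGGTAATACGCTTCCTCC
Igkv16-104: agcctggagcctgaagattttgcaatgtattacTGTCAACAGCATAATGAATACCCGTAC
Igkv4-59: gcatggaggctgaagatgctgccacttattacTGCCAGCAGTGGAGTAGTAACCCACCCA

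The 3 lambda segments are given in the same way. Iglv1 and Iglv2 were 97.0% identical, while Iglv3 was 53.3% identical to Iglv1.
Iglv1: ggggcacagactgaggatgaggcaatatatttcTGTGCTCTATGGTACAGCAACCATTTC
Iglv2: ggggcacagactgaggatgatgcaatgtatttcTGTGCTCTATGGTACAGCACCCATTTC
Iglv3: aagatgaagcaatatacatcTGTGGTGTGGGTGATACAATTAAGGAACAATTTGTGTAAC

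Kappa variable transcripts were more abundant in every knockout library than in any wild type library, by an amount that differed widely between the knockout libraries. Summed over the 78 kappa segments, the level was 42.7, 157 and 397 CPM in KO3, KO4 and KO5, against 12.8, 12.1, 9.55 and 19.0 CPM in WT2, WT3, WT4 and WT6. The means were 199 ± 181 CPM in knockout lung (SD, n = 3) and 13.4 ± 4.0 CPM in wild type lung (SD, n = 4). On the log2(CPM + 0.5) scale the difference was 3.37. An exact two-sided permutation test over the 35 ways to choose 3 of 7 libraries gave p = 0.0286, the smallest this design allows, and 0.0735 after Benjamini-Hochberg adjustment over the 9 library measures described here. KO5 was highest and KO3 lowest among the knockout libraries, and KO3 still lay above WT6, the highest wild type library.

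WT6 and KO5 stood apart from the other libraries in tissue make-up. Summed mesothelium markers were at 129 CPM in KO5 and 24.5 and 51.6 CPM in KO3 and KO4, against 31.3, 40.5, 33.1 and 117 CPM in WT2, WT3, WT4 and WT6. The sum of 9 whole lung markers, mostly Scgb1a1 and Sftpc, was lowest in the same pair. It was 17165 CPM in KO5 and 20336 CPM in WT6, against 25095 to 28902 CPM elsewhere. Scgb1a1, Sftpc, Ager, Pecam1 and Foxj1 were each lowest in this pair, while Sftpb, Kdr, Hopx and Col1a1 were not. Hopx was highest there (172 CPM in KO5 and 192 CPM in WT6). The fibroblast marker Col1a1 had 238 CPM in KO5 and 223 CPM in WT6, both below the 241 CPM of WT4. Without WT6 and KO5 the difference in summed kappa level was 2.79 on the log2 scale.

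Igkv8-21, 1 of the 78 kappa segments, was the leading segment of all 3 knockout libraries and had at most 3 counts in a wild type library. It had 125, 509 and 1425 counts in KO3, KO4 and KO5, against 0, 3, 0 and 2 counts in WT2, WT3, WT4 and WT6. These are 8.45, 32.4 and 103 CPM in the knockout libraries and 0, 0.192, 0 and 0.141 CPM in WT2, WT3, WT4 and WT6, with no overlap. It took 19.8%, 20.6% and 26.0% of all kappa variable counts in KO3, KO4 and KO5, against 0%, 1.58%, 0% and 0.741% in WT2, WT3, WT4 and WT6. The ratio of summed counts, scaled to the same library sizes as CPM, was 557 (95% interval 238 to 1719, counting error only). In the fit of all genes its log2 fold change of 9.03 ± 1.43 (SE) was the largest of 19832 genes. Its adjusted p was nevertheless 0.580 (unadjusted 0.000935) in edgeR's quasi-likelihood test with Benjamini-Hochberg adjustment, against 7.45e-08 with DESeq2. Over 14 alternative settings the adjusted p ranged from 4.50e-92 to 0.99997 and passed in 3. These were edgeR's replicate block (the lowest value), edgeR without KO3 (0.00551) and DESeq2. The block rests on KO3, KO4, WT3 and WT4 and on numbers that the labels do not pair. Its p is therefore a poor measure of the spread between libraries. The adjusted p was 0.122 without KO5, and without WT6 and KO5 it was 0.9998 with a log2 fold change of 8.12.

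Igkv3-2 was the member with the smallest p. It had 38, 74 and 159 counts in KO3, KO4 and KO5, against 5, 2, 3 and 0 counts in WT2, WT3, WT4 and WT6. The levels were 2.57, 4.71 and 11.5 CPM in the knockout libraries and 0.301, 0.128, 0.222 and 0 CPM in the wild type libraries, again with no overlap. edgeR's quasi-likelihood test gave a log2 fold change of 5.16 ± 0.68 (SE) and adjusted p = 0.0524, just outside the threshold of 0.05. Over 14 alternative settings of edgeR and DESeq2 the adjusted p ranged from 8.63e-14 to 0.330 and passed in 7. As a share of kappa counts Igkv3-2 made up 6.01%, 3.0% and 2.90% in KO3, KO4 and KO5, against 2.35%, 1.05%, 2.33% and 0% in WT2, WT3, WT4 and WT6.

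**Figure D1:**
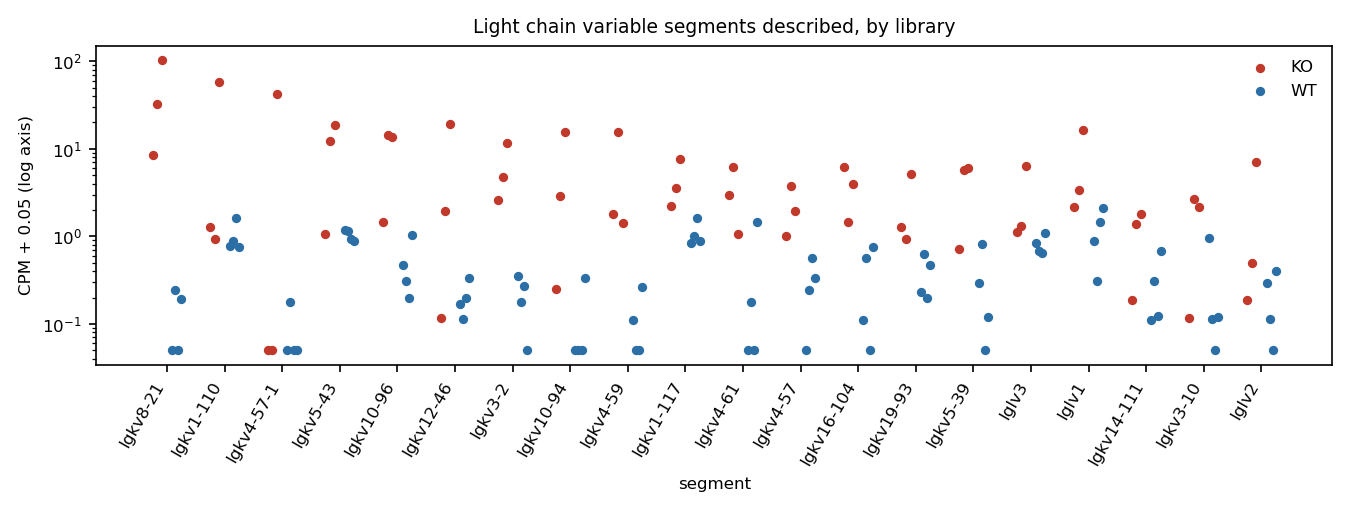
Level of the 20 light chain segments described, as CPM + 0.05 on a log axis, with 1 point per library and the knockout libraries (red) left of the wild type libraries (blue) at each segment. Igkv8-21 stands highest in knockout lung, at 8.45 to 103 CPM, and at 0 to 0.192 CPM in wild type lung, while Igkv4-57-1 and Igkv1-110 are high in 1 knockout library.

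Below Igkv8-21, each knockout library was led by other segments. KO3 had Igkv16-104 in the next place, with 92 counts and 14.6% of its kappa counts. That segment had 22 and 54 counts in KO4 and KO5, against 1, 8, 0 and 10 counts in WT2, WT3, WT4 and WT6. KO4 had Igkv4-59 in the next place with 241 counts, against 26 and 19 counts in KO3 and KO5 and 1, 0, 0 and 3 counts in WT2, WT3, WT4 and WT6. Both segments were thus above wild type in all 3 knockout libraries, but high in a different one. Neither passed the test, with log2 fold changes of 3.56 ± 0.76 and 6.37 ± 1.36 (SE) and adjusted p of 0.616 and 0.858 by edgeR's quasi-likelihood test.

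KO5 held the most uneven additions. Igkv1-110 had 803 counts (58.1 CPM) in KO5 and 18 and 14 counts in KO3 and KO4, against 12, 13, 21 and 10 counts in WT2, WT3, WT4 and WT6. Its log2 fold change of 4.40 ± 1.70 (SE) did not pass (adjusted p = 0.9998 in edgeR's quasi-likelihood test) and was 0.16 without KO5. Igkv4-57-1 had 589 counts (42.6 CPM) in KO5 and 0 in KO3 and KO4, against 2 counts in WT3 and 0 in the other wild type libraries. The 2 wild type counts put its presence there near the counting limit, and the filter on low counts left it out of the edgeR fit. Igkv12-46 had 1, 30 and 266 counts in KO3, KO4 and KO5, against 2, 1, 2 and 4 counts in WT2, WT3, WT4 and WT6. Igkv10-94 had 3, 45 and 215 counts in KO3, KO4 and KO5, against 0, 0, 0 and 4 counts in WT2, WT3, WT4 and WT6. Each of these 4 segments was highest in KO5 and had at least 1 knockout library at or near the wild type level.

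The leading segments of the wild type libraries were Igkv5-43, Igkv1-110, Igkv1-117 and Igkv4-61. Igkv5-43, the leading segment of WT2 and WT3, had 15, 191 and 260 counts in KO3, KO4 and KO5, against 19, 17, 12 and 12 counts in WT2, WT3, WT4 and WT6. KO3 lay within the wild type range, and the adjusted p was 0.9998 with edgeR's quasi-likelihood test and 0.0381 with DESeq2. Its neighbour Igkv5-45 was 99.0% identical in the V exon, but had only 2 counts in all knockout libraries together and 2 in all wild type libraries. Igkv1-117, which shared the lead of WT4 with Igkv1-110 at 21 counts, had 32, 55 and 106 counts in KO3, KO4 and KO5, against 13, 15, 21 and 12 counts in WT2, WT3, WT4 and WT6. Its groups did not overlap, and its log2 fold change of 2.10 ± 0.43 (SE) had an adjusted p of 0.442 with edgeR's quasi-likelihood test and 0.00201 with DESeq2. As a share of kappa counts Igkv1-117 stood at 5.06%, 2.23% and 1.93% in KO3, KO4 and KO5, against 6.10%, 7.89%, 16.3% and 4.44% in WT2, WT3, WT4 and WT6. In CPM all knockout values of Igkv1-117 thus lay above all wild type values, while its share of kappa counts overlapped between the groups.

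Igkv10-96 had 21, 227 and 189 counts in KO3, KO4 and KO5, against 7, 4, 2 and 14 counts in WT2, WT3, WT4 and WT6, with no overlap (log2 fold change 4.42 ± 0.88 SE, adjusted p = 0.697 in edgeR's quasi-likelihood test). Igkv4-61, the leading segment of WT6, had 43, 97 and 14 counts in KO3, KO4 and KO5, against 0, 2, 0 and 20 counts in WT2, WT3, WT4 and WT6, so that KO5 lay below WT6. It did not pass with all libraries, while without WT6 and KO5 its log2 fold change was 6.46 and edgeR's quasi-likelihood test gave adjusted p = 0.000500. That setting drops the highest wild type and the lowest knockout library of Igkv4-61, so nothing is read from its p. Without WT6 alone the same test gave adjusted p = 0.348. Igkv4-57, Igkv19-93 and Igkv5-39 had log2 fold changes of 3.16 ± 0.67, 2.81 ± 0.69 and 3.83 ± 0.92 (SE), and none of them passed in edgeR's quasi-likelihood test. Igkv14-111 had 2, 21 and 24 counts in KO3, KO4 and KO5, against 1, 4, 1 and 9 counts in WT2, WT3, WT4 and WT6. Igkv3-10 had 1, 41 and 29 counts in KO3, KO4 and KO5, against 15, 1, 0 and 1 counts in WT2, WT3, WT4 and WT6. In both of these, KO3 lay within the wild type range.

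No light chain segment was called at an adjusted p of 0.05 by edgeR's quasi-likelihood test, in which 0.0353% of 19832 genes were called (7, of which 5, 0.0252%, were higher in knockout lung). Only 17 of the 81 members passed the filter on low counts, 15 kappa segments with Iglv1 and Iglv3. Of these, 15 had an unadjusted p under 0.05, all of them higher, where 1.82% of all genes were higher at that level. Some, such as Igkv8-21, Igkv3-2 and Igkv4-59, passed the filter only through knockout libraries, so that a higher value was partly fixed by the filter and nothing is read from this count. With no filter, so that every member was fitted, 48 of 81 were higher at an unadjusted p under 0.05 and 0 were lower, beside 2.14% of all entries higher. DESeq2 gave an adjusted p to 40 of 81 members, and Igkv4-59 was among those without one. Whether members such as Igkv4-50 (65 counts in knockout and 3 in wild type libraries) had one only through knockout libraries was not tested. Of the 40, DESeq2 called 9, all kappa and all higher, beside 0.244% of all genes that it gave an adjusted p. They were Igkv3-2, Igkv8-21, Igkv1-117, Igkv4-57, Igkv10-96, Igkv5-48, Igkv19-93, Igkv4-50 and Igkv5-43, with adjusted p from 9.97e-12 to 0.0381 in DESeq2 and log2 fold changes of 2.10 to 9.16. Without KO3, edgeR called 9 of 81, where 0.192% of all genes were called higher. Other settings of edgeR's test called 12 of 81 with the replicate number as a block (0.706% of all genes), 1 with RLE size factors (0.0403%), 1 without KO5 (0.0396%), 2 without WT6 and KO5 (0.0701%) and 1 with a term for that pair (0.146%).

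Read without a model, the whole set leaned the same way. All 3 knockout values lay above all 4 wild type values in 21 of 81 members, beside 2.33% of all entries with a count, and below them in 0 of 81, beside 1.61%. The knockout mean was above the wild type mean in 74 of 81 members, beside 49.5% of all entries. The other 7 (Igkv3-1, Igkv4-58, Igkv4-70, Igkv4-90, Igkv6-13, Igkv6-32 and Igkv8-24, named after their values were seen) had at most 18 counts summed over a group. Over all 81 members the log2 fold change without a filter ran from -1.79 to 9.02 with a median of 2.77, while the median of all entries was -0.0044. The members share B cells and libraries and are not independent of each other.

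Most segments peaked in 1 library. KO5 held the highest value for 47 of 78 kappa segments, KO4 for 18 and KO3 for 4, with the remaining segments highest in a wild type library. At least 10 counts were reached by 16, 32 and 47 kappa segments in KO3, KO4 and KO5, against 6, 5, 3 and 8 in WT2, WT3, WT4 and WT6. A count in all 7 libraries was found for 19 of 78 kappa segments. Igkv11-125, Igkv14-130, Igkv4-63, Igkv9-123 and Igkv9-129, also named after their values were seen, had no count in any wild type library. Summed over the knockout libraries they had 17, 45, 8, 4 and 1 counts. No segment lacked counts in all knockout libraries. Kappa counts were 632 to 5480 in knockout and 129 to 270 in wild type libraries, so nothing is read from these absences. Summed by family, which is less open to counts shared between copies, the 14 families that passed the filter had log2 fold changes of 1.66 to 5.29. None was called, with a lowest adjusted p of 0.537 by edgeR's quasi-likelihood test.

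**Figure D2:**
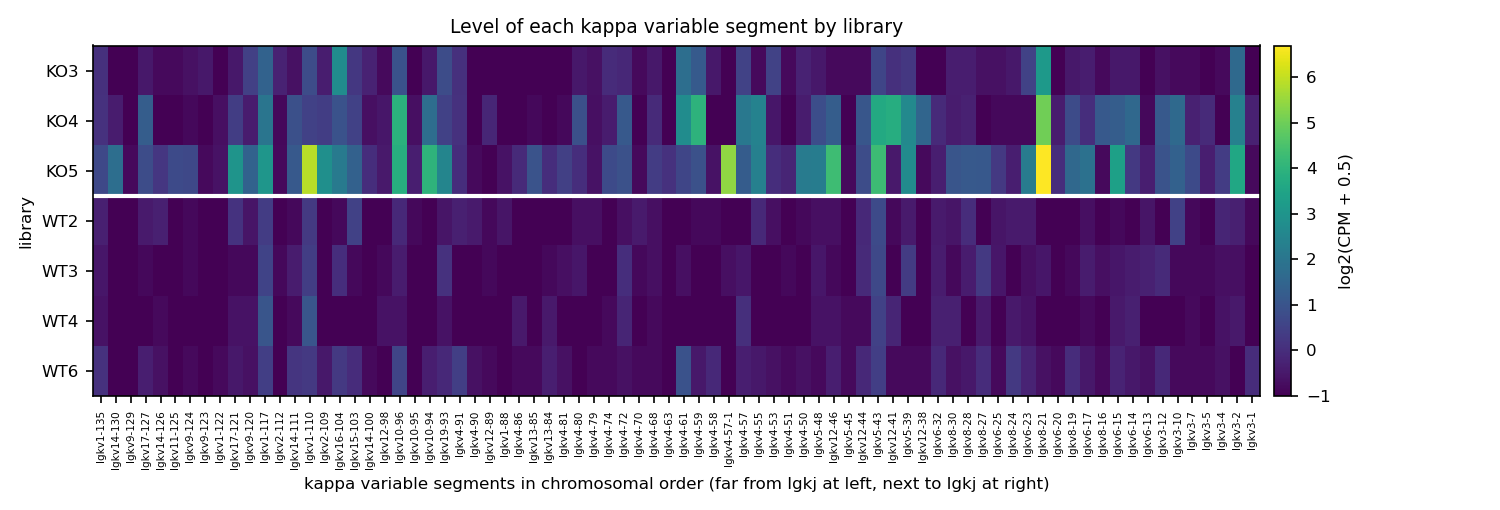
Level of each of the 78 kappa segments, as log2(CPM + 0.5), in the 7 libraries, with segments in chromosomal order and the knockout libraries above the wild type libraries. Igkv8-21 is bright in KO3, KO4 and KO5, the other bright cells differ between the knockout libraries, and the highest values of 47 of 78 segments are in KO5.

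Segments on the minus strand, which are joined by inversion, made up 60.9%, 84.7% and 69.8% of kappa counts in KO3, KO4 and KO5, against 51.6%, 62.6%, 51.9% and 63.7% in WT2, WT3, WT4 and WT6. KO3 lay within the wild type range in this share, which was not tested.

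To compare how evenly segments were used, concentration was measured in each library by the share of the leading segments and by an effective number, the number of equally used segments that would give the same concentration. Kappa use was more concentrated in all 3 knockout libraries than in any wild type library. The leading segment took 19.8%, 20.6% and 26.0% of kappa counts in KO3, KO4 and KO5, against 8.92%, 8.95%, 16.3% and 7.41% in WT2, WT3, WT4 and WT6. With exact binomial intervals (95%), KO3 reached down to 16.7% while WT4, the shallowest library with 129 kappa counts, reached up to 23.8%, so that this pair overlapped in counting error. The mean difference was 11.7 percentage points (exact two-sided permutation p = 0.0571, adjusted 0.0735). The 5 leading segments took 52.2%, 55.8% and 61.0% in KO3, KO4 and KO5, against 34.7%, 35.8%, 51.2% and 25.9% in WT2, WT3, WT4 and WT6 (mean difference 19.4 points, the same exact permutation p).

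The effective number of kappa segments was 12.7, 12.3 and 8.95 in KO3, KO4 and KO5, against 28.8, 27.7, 14.4 and 39.5 in WT2, WT3, WT4 and WT6. WT4 was the wild type library nearest to the knockout libraries in each of these measures. On the log2 scale the difference was -1.21, with an exact two-sided permutation p of 0.0571 and an adjusted p of 0.0735. Evenness, the Shannon entropy over its maximum after thinning to 129 counts, was 0.834, 0.834 and 0.787 in KO3, KO4 and KO5, against 0.918, 0.909, 0.863 and 0.932 in WT2, WT3, WT4 and WT6, with the same permutation p. The number of segments expected at that depth was 34.9, 31.1 and 30.2 in KO3, KO4 and KO5, against 41.5, 42.4, 33.0 and 49.9 in WT2, WT3, WT4 and WT6. Here KO3 lay above WT4, and the exact permutation p was 0.0857 (adjusted 0.0964). Unthinned, knockout libraries showed more segments, with 59, 62 and 77 of 78 in KO3, KO4 and KO5, against 48, 49, 33 and 66 in WT2, WT3, WT4 and WT6. Their kappa counts before thinning were larger too, at 632 to 5480 in knockout libraries and 129 to 270 in wild type libraries.

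The difference in concentration was smaller without Igkv8-21. With this segment left out, a comparison chosen after seeing the data that takes the leader from the knockout libraries alone, the difference in effective number was -0.79 on the log2 scale (exact permutation test, adjusted p = 0.129) and that in evenness was -0.0517 (adjusted p = 0.129). The difference in summed kappa level was 3.02 on the log2 scale. Outside the 5 leading segments of each library, kappa segments summed to 20.4, 69.4 and 155 CPM in KO3, KO4 and KO5, against 8.38, 7.79, 4.66 and 14.1 CPM in WT2, WT3, WT4 and WT6, with no overlap. With counts summed by family, the difference was -0.30 in log2 effective number (exact permutation test, adjusted p = 0.225). It was 1.91 points in the share of the leading family (exact permutation test, adjusted p = 0.771). Both differences were smaller than those by segment. Without WT6 and KO5 the segments gave -0.85 in log2 effective number, -0.0626 in evenness and 8.82 points in the share of the leading segment.

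**Figure D3:**
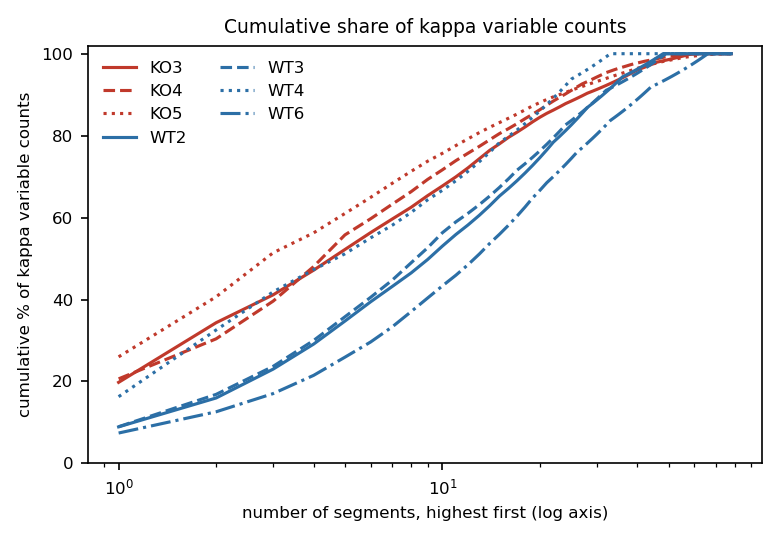
Cumulative percent of kappa variable counts against the number of segments, taken from the highest down on a log axis, with 1 line per library (knockout red, wild type blue). The knockout lines start at 19.8% to 26.0% and the wild type lines at 7.41% to 16.3%, and WT4 runs close to the knockout lines.

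**Figure D4:**
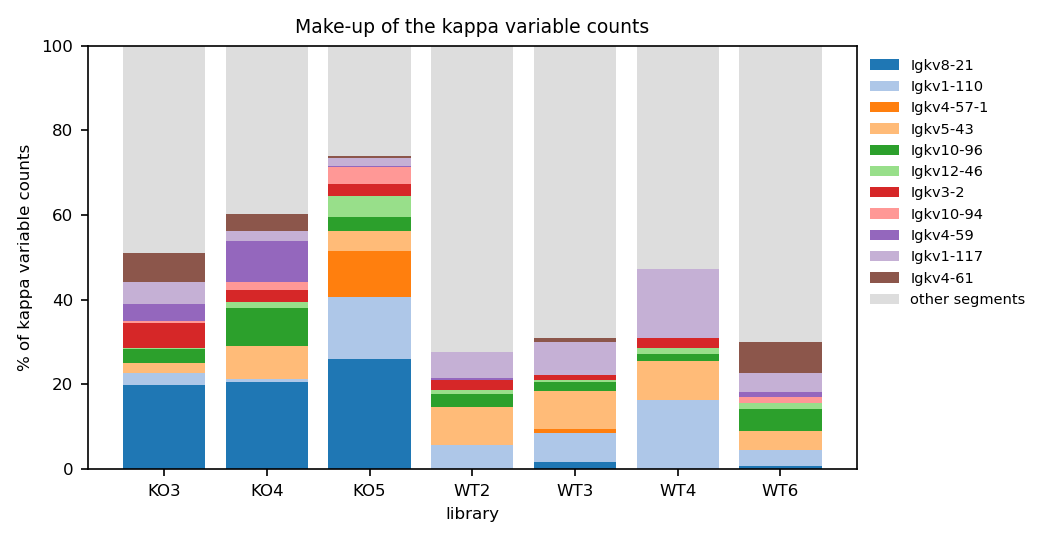
Make-up of the kappa variable counts of each library in percent, for 11 named segments and all others together, knockout libraries at the left. Igkv8-21 takes 19.8% to 26.0% in the knockout libraries and at most 1.58% in the wild type libraries, and the next colours differ from one knockout library to another.

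Whether libraries of a genotype used the same segments was described with the Morisita-Horn overlap, which is 0 when 2 libraries share no segment and 1 when their shares are equal. Overlap was 0.674 to 0.744 in the 3 pairs of knockout libraries and 0.243 to 0.427 in the 12 pairs of a knockout with a wild type library. The 6 pairs of wild type libraries had 0.483 to 0.701. Leaving out Igkv8-21, also chosen after seeing the data, put knockout pairs at 0.309 to 0.484 with a median of 0.310, mixed pairs at 0.367 to 0.616 with a median of 0.450, and wild type pairs at 0.485 to 0.706 with a median of 0.627. Igkv8-21 was left out because it leads all knockout libraries, which by itself lowers their overlap, while wild type libraries kept their leading segments, so nothing is read from the order of these ranges. Pairs share libraries, so the values are given without a test.

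**Figure D5:**
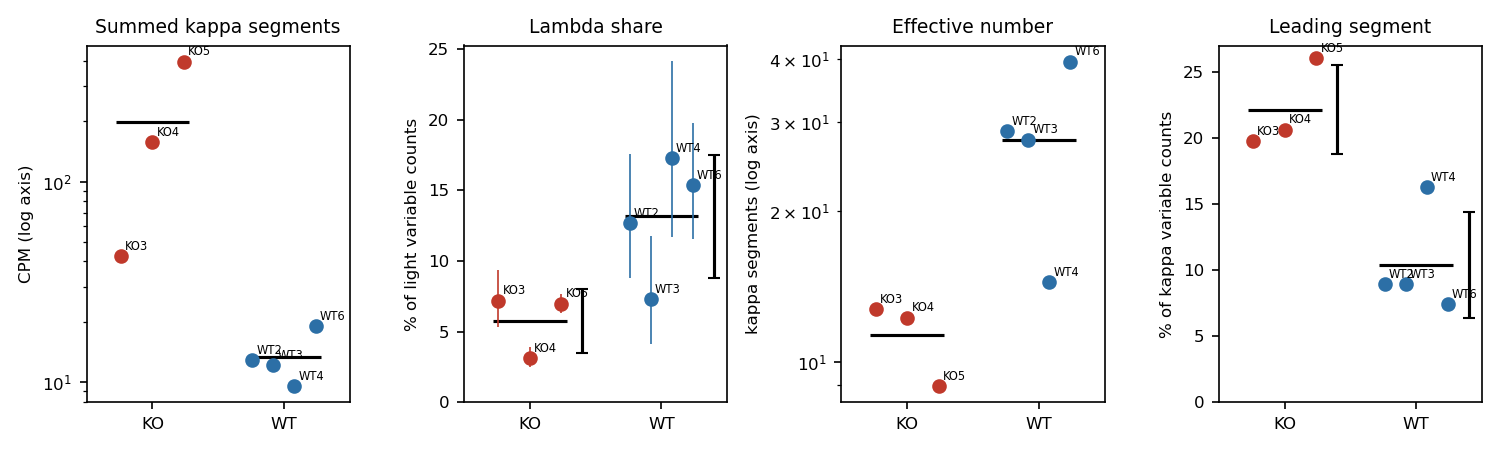
Summed kappa level (CPM, log axis), lambda share of light chain variable counts (%, thin lines are exact binomial 95% intervals), effective number of kappa segments (log axis) and share of the leading kappa segment (%), with 1 point per library, knockout left of wild type. Black lines are group means, and capped bars, drawn only in the panels without a log axis, are the SD. In each panel the 3 knockout libraries lie on 1 side of the 4 wild type libraries.

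Lambda transcripts were also more abundant on average in knockout lung, but by less than kappa. Summed lambda counts were 49, 80 and 412 in KO3, KO4 and KO5, against 31, 15, 27 and 49 in WT2, WT3, WT4 and WT6. The levels were 3.31, 5.09 and 29.8 CPM in the knockout libraries and 1.87, 0.958, 2.0 and 3.45 CPM in the wild type libraries, so that KO3 lay just below WT6. The difference was 1.84 on the log2(CPM + 0.5) scale (exact two-sided permutation p = 0.0571, adjusted 0.0735). It was 0.93 without KO5 and 1.17 without WT6 and KO5.

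The lambda share of light chain variable counts was 7.20%, 3.14% and 6.99% in KO3, KO4 and KO5, against 12.7%, 7.32%, 17.3% and 15.4% in WT2, WT3, WT4 and WT6. The means were 5.78% ± 2.28 in knockout lung (SD, n = 3) and 13.2% ± 4.34 in wild type lung (SD, n = 4). All 3 knockout libraries lay below all 4 wild type libraries, but KO3 and WT3 were close, with exact binomial intervals of 5.37% to 9.40% in KO3 and 4.15% to 11.8% in WT3. The mean difference was -7.40 percentage points (exact two-sided permutation p = 0.0571, adjusted 0.0735). Counts of the constant regions (Iglc entries against Igkc) gave lambda shares of 4.60%, 3.56% and 4.65% in KO3, KO4 and KO5, against 10.3%, 10.1%, 6.70% and 13.7% in WT2, WT3, WT4 and WT6, also without overlap. With Igkv8-21 left out of the kappa counts, the difference in variable segments was -5.90 points (exact permutation test, adjusted p = 0.129). It was -7.28 points without WT6 and KO5.

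Among the lambda segments, Iglv1 had 31, 53 and 228 counts in KO3, KO4 and KO5, against 14, 4, 19 and 29 counts in WT2, WT3, WT4 and WT6. Iglv3 had 16, 20 and 88 counts in KO3, KO4 and KO5, against 13, 10, 8 and 15 counts in WT2, WT3, WT4 and WT6. On the CPM scale, knockout libraries lay above all wild type libraries for both segments, with log2 fold changes of 2.70 ± 0.85 and 1.90 ± 0.61 (SE) that did not pass (adjusted p = 0.9998 for both in edgeR's quasi-likelihood test). Without KO5 the log2 fold changes were 1.29 and 0.62. The margin was small in KO3, where Iglv3 had 1.08 CPM against 1.05 CPM in WT6. Iglv2, left out by the filter, had 2, 7 and 96 counts in KO3, KO4 and KO5, against 4, 1, 0 and 5 counts in WT2, WT3, WT4 and WT6. It took 23.3% of lambda counts in KO5, against 0% to 12.9% in the other 6 libraries.

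Constant and joining segments of the light chain loci were then set beside the variable segments. Igkc, the kappa constant region, had 133, 438 and 570 CPM in KO3, KO4 and KO5, against 40.8, 42.2, 39.2 and 26.6 CPM in WT2, WT3, WT4 and WT6 (log2 fold change 3.35 ± 0.49 SE, adjusted p = 0.406 in edgeR's quasi-likelihood test). The joining segment Igkj5 had 0.811, 1.65 and 3.19 CPM in KO3, KO4 and KO5, against 0.301, 0.319, 0.148 and 0.703 CPM in WT2, WT3, WT4 and WT6. Of 10 constant and joining entries in the table, 6 were tested, 0 were called and 3 (Igkc, Igkj5 and Iglc1) had all knockout values above all wild type values, beside 2.33% of all entries with a count. Kappa variable counts per Igkc count were 0.321, 0.358 and 0.696 in KO3, KO4 and KO5, against 0.315, 0.287, 0.244 and 0.714 in WT2, WT3, WT4 and WT6. This ratio overlapped fully (log2 difference 0.28, exact two-sided permutation p = 0.514) and was highest in KO5 and WT6, the pair that stood apart in tissue markers.

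Genes of antibody secretion and of B cells gave mixed values. Jchain, which links the chains of secreted IgA and IgM, had 27.0, 72.9 and 313 CPM in KO3, KO4 and KO5, against 8.26, 8.75, 5.70 and 12.2 CPM in WT2, WT3, WT4 and WT6. Of 13 tested genes of antibody secretion 0 were called, 11 had a positive log2 fold change and the median was 0.82, beside a median of -0.0068 over all genes tested. Sdc1, Prdm1 and Xbp1, genes of plasma cells that other lung cells express too, had log2 fold changes of -0.04, 0.06 and 0.02. Tnfrsf17, the plasma cell receptor BCMA, had 2, 5 and 11 counts in KO3, KO4 and KO5, against 0, 2, 1 and 1 counts in WT2, WT3, WT4 and WT6. Of 15 B cell genes 0 were called, all 15 had a positive value and the median was 1.38. All knockout values lay above all wild type values in 3 of 14 genes of antibody secretion (Jchain, Eaf2 and Tnfrsf17) and in 1 of 15 B cell genes. The share over all entries with a count was 2.33%, so nothing is read from 1 gene. That B cell gene was Cd22, an inhibitory receptor, at 10.6, 19.7 and 39.0 CPM in KO3, KO4 and KO5, against 10.2, 9.19, 5.11 and 9.85 CPM in WT2, WT3, WT4 and WT6.

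The B cell markers Ms4a1, Cd79a, Cd79b and Pax5 summed to 21.4, 47.5 and 103 CPM in KO3, KO4 and KO5, against 26.3, 21.5, 11.3 and 32.1 CPM in WT2, WT3, WT4 and WT6. KO3 was within the wild type range for these markers while its kappa level was above it, and KO5 was highest in both. The 5 T cell markers summed to 13.4, 19.7 and 29.4 CPM in KO3, KO4 and KO5, against 11.3, 11.2, 7.62 and 11.8 CPM in WT2, WT3, WT4 and WT6. The part of lymphocyte number in the differences of segment level was not tested. Rag2 and Dntt, which act in the recombination of antigen receptors in bone marrow and thymus, together stayed at 0.0676, 0 and 0.362 CPM in KO3, KO4 and KO5, against 0 to 0.0740 CPM in wild type lung. Vpreb3, of the surrogate light chain family, had 5.63 ± 1.72 CPM in knockout lung (SD, n = 3) and 4.64 ± 0.82 CPM in wild type lung (SD, n = 4). Of 4 tested germinal centre genes 0 were called, with a median log2 fold change of 0.07.

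Heavy chain variable segments, the partners of the light chains, were set beside them. The 87 Ighv segments summed to 641, 2220 and 6137 counts in KO3, KO4 and KO5, against 225, 228, 175 and 327 counts in WT2, WT3, WT4 and WT6. All knockout values were above all wild type values in 23 of 87 Ighv segments, beside 2.33% of all entries with a count, and edgeR's quasi-likelihood test called 3 of 87, beside 0.0353% of all genes tested. The leading Ighv segment took 9.83%, 12.4% and 18.2% of heavy counts in KO3, KO4 and KO5, against 8.44%, 7.02%, 16.6% and 9.48% in WT2, WT3, WT4 and WT6, an overlap not seen for kappa. The effective number of heavy segments was 25.6, 20.2 and 11.03 in KO3, KO4 and KO5, against 40.8, 39.6, 21.1 and 28.9 in WT2, WT3, WT4 and WT6, where KO3 lay above WT4. Overlap of heavy segment use was 0.370 to 0.484 among knockout pairs and 0.368 to 0.719 among wild type pairs. The 12 pairs of a knockout with a wild type library had 0.207 to 0.548, a range that holds all knockout pairs. The difference between kappa and heavy use was not tested.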

How the data were processed

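Lung RNA was isolated with Trizol and made into Illumina libraries, per the labels' protocols. The authors deposited whole-number read counts per gene symbol, not normalized. STAR, DESeq2 and mm10 are named, without versions or roles, per the submitters' processing notes. The counting program, its annotation and its use of strand are not stated there.

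From these counts, all genes were fitted together with edgeR 4.0.16 in R 4.3.3 (TMM normalization, its filter on low counts by genotype, robust quasi-likelihood test, Benjamini-Hochberg adjustment, threshold 0.05), and with DESeq2 1.42.0 as an alternative. CPM uses TMM-scaled library sizes. Measures per library were compared with the exact two-sided permutation test of the difference in means, and 0.5 CPM was added before log2 of a summed level. The effective number is the inverse of the unbiased Simpson concentration, and thinned values are expectations in closed form. Of 10 planned measures the share of pseudogene counts could not be given, since no member is annotated as a pseudogene. The fit was tested on simulated data with known changes. Sequences and positions came from GENCODE M21 on GRCm38, matched by symbol for 81 of 81 members. Library pairs differed by a chi-square of at least 4.30 per degree of freedom, so each library was counted once.

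Segments named are the 10 kappa segments with the highest mean CPM, the leading segment of each library, up to 8 more with the smallest p, all Iglv and Igkv3-2, which an earlier analysis of these data had named. Igkv5-45, Igkv8-21's relatives, the DESeq2 calls Igkv5-48 and Igkv4-50, the constant region Iglc1, Tnfrsf17, Sdc1, Prdm1, Xbp1, Rag2 and Dntt were named in addition. The members, the gene lists and the pair WT6 and KO5 were chosen with earlier results of these data known. Alternatives were other scalings, no filter, DESeq2, each library left out, WT6 and KO5 left out or given a term, replicate numbers as a block, sums by family, other depths, constant regions and, added after seeing the data, counts per exon length and, for summed kappa level, effective number, evenness and lambda share, Igkv8-21 left out. Of the B cell markers, 4 were summed, and 1 other gene of that marker list is not reported here.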

Additional observations from a re-analysis of the deposited data

Results flagged for a closer look

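A library far from the other 3 of its group was looked for in each named gene of the 4 wild type libraries, by the gap to its nearest neighbour over the whole range (Dixon's ratio, at its 95% limit for 4 values). For normally distributed values, chance exceeds this limit in about 1 of 20 groups. Among 50 groups of values checked, 5 exceeded it, all of them light chain segments with few counts. The rate of 1 in 20 does not hold for such low counts, so the 5 are not read against it. Igkv1-110 had a ratio of 0.851, with 21 counts in WT4 and 10 to 13 in the other wild type libraries. Igkv4-61 had a ratio of 0.909, with 20 counts in WT6 and 0 to 2 in the others. Igkv3-10 had a ratio of 0.922, with 15 counts in WT2 and 0 or 1 in the others. For Igkv4-57-1 and Igkv10-94 the ratio was 1, since only WT3 (2 counts) and only WT6 (4 counts) had any. Each of the 4 wild type libraries was the high one for at least 1 of these segments, and the knockout group, with 3 libraries, was too small to be checked this way.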

How the results depend on the processing

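With edgeR's quasi-likelihood test no member was called with TMM, with library totals, without a filter or by family, 1 was called (Igkv3-2) with RLE size factors, and DESeq2 called 9. Leaving out 1 library gave 0 to 9 calls, with 9 without KO3, 1 (Igkv3-2) without KO5 and 0 for each other library. Without WT6 and KO5, 2 were called (Igkv3-2 and Igkv4-61), and with a term for this pair 1 (Igkv3-2). Replicate numbers 3 and 4 occur in both genotypes, but the labels do not pair them. Deviations of same-numbered libraries correlated at 0.236 and 0.201, against 0.236 and 0.221 for different numbers. With the number as a replicate block, which leaves KO3, KO4, WT3 and WT4 to set the difference, 12 members were called, beside 0.706% of all genes (140). Such a fit leaves little to measure the spread between libraries. The same block gave differences of -0.0518 in evenness, -0.68 in log2 effective number, 7.59 points in the leading share and 10.5 points in that of the 5 leading segments, and a log2 fold change of -0.16 for Igkv1-110, whose high counts are in KO5. The number of segments detected without thinning turned round, with 17 more in knockout libraries, which had more counts.

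Each library left out in turn gave knockout minus wild type differences of 2.61 to 4.21 in log2 summed kappa level, 0.93 to 2.43 in log2 lambda level, -9.35 to -6.02 points in lambda share, -12.5 to -6.89 segments at fixed depth, -0.101 to -0.0715 in evenness, -1.50 to -1.01 in log2 effective number, 9.82 to 13.7 points in the leading share, 15.8 to 24.2 points in the 5 leading and -0.06 to 0.62 in the log2 ratio of variable to constant counts. With 1 library left out the smallest exact p is 0.0667 or 0.1, so these are values without a test. Counts per exon length gave 11.6 and 19.4 points for the leading and 5 leading shares. Restricting to functional V genes changed no member and was not run.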
